A study of Mus musculus with 8 samples.

Results

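The basic helix-loop-helix (bHLH) factors of forebrain neurons and their dimer partners were followed in the CA1 region of the hippocampus. The 10 genes were Neurod1, Neurod2, Neurod6 and Bhlhe22, the E protein genes Tcf3, Tcf4 and Tcf12, and the Id inhibitor genes Id2, Id3 and Id4. They were taken by symbol from the 37315 Ensembl gene identifiers of the count files, and all 10 matched 1 identifier each. RNA came from 8 Cas9 mice, each given an adeno-associated virus (AAV) with a guide RNA by stereotaxic injection into the brain, and 1 library was made per mouse. The guide was against SIK3 in 4 mice (2 males, 2 females), labelled KO, and a control guide in the other 4 mice (2 males, 2 females), labelled Control. All 8 mice therefore carried Cas9 and received virus and surgery. Age, strain, the promoter that drives Cas9 and the time after injection are not given in the labels, and bulk tissue also holds RNA of cells that the virus did not reach.

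Proteins with a bHLH domain bind DNA as dimers at the E-box, a short motif read CANNTG. The NeuroD proteins and Bhlhe22 are made in neurons and pair with E proteins, which most cell types make. Id proteins keep the helix-loop-helix but lack the basic stretch that touches DNA, so an E protein bound by an Id protein cannot bind an E-box. Neurod2 and Neurod6 are known from differentiating and mature pyramidal neurons, Neurod1 in the hippocampus foremost from granule neurons of the dentate gyrus, and Id3 and Id4 from glia and vessels. Bhlhe22 works with Prdm8 as a repressor.

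RefSeq promoter windows on GRCm38.p6, the 250 bases before the annotated start, were matched for 8 of the 10 members, all but Bhlhe22 and Tcf4. The 3 NeuroD windows and that of Id4 are shown because these genes share a dimer partner or compete for it. The E-box is the motif the family reads, and TGACG is the core of the site of the CREB factors, whose coactivators SIK kinases phosphorylate. Capitals mark CANNTG or TGACG on either strand, and the sequences run 5′ to 3′ toward the gene. Bases that GENCODE places inside the gene were left out of the printed sequences.
Neurod1 (chr2:79456752-79456886, minus strand): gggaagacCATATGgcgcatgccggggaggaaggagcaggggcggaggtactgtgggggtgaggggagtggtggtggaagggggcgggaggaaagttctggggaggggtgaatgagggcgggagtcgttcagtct
Neurod2 (chr11:98329649-98329895, minus strand): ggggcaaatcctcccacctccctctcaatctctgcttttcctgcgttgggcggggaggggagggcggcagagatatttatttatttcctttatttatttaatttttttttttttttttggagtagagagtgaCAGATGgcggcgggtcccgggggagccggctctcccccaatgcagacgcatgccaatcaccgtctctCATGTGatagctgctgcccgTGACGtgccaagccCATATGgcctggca
Neurod6 (chr6:55681264-55681513, minus strand): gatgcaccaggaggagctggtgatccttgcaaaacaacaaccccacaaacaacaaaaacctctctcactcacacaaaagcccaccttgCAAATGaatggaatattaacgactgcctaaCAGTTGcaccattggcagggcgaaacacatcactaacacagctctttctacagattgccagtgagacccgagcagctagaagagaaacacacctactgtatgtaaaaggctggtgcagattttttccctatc
Id4 (chr13:48260866-48261115, plus strand): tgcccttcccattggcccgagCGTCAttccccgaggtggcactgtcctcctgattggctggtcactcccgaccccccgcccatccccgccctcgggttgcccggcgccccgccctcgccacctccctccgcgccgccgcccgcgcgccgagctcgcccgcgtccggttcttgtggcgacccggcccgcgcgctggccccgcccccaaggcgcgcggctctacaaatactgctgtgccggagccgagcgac

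An E-box (CANNTG, searched on both strands) lay in 6 of the 8 member windows and in 66.2% of all 32851 windows of this length. Neurod2 held 3, at 118, 51 and 17 bases before the start, of which the first reads CAGATG, an E-box form bound by NeuroD factors. That form was found in 14.4% of all windows. Neurod6 held 2 E-boxes and Neurod1 held 1, which reads CATATG and lies 242 bases before the start. Distances run to the RefSeq start, which for Neurod1 lies inside the GENCODE gene, so its printed sequence stops short of that start. In the windows of Id3 and Id4 there was no CANNTG. The core TGACG lay in the windows of Neurod2, Id3 and Id4, 3 of 8 against 17.8% of all windows. The full site TGACGTCA was in 0 of the 8 and in 1.55% of all windows. These matches describe letters and not bound sites. Whole windows were searched, including bases that GENCODE places inside the gene. The windows of Id2 and Id3 lie entirely inside their GENCODE genes. The E-box of Id2, the TGACG of Id3 and the absence of CANNTG in Id3 therefore do not describe sequence before the GENCODE gene.

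Totals ran from 13561662 to 18619928 counts per library, with the males at 13561662 to 15165413 and the females at 16743701 to 18619928, so depth and sex cannot be told apart. Sik3 was at 165, 148, 139 and 137 CPM (counts scaled to library size, with TMM factors) in controls 1 to 4, and at 75.3, 88.3, 82.9 and 98.4 CPM in KO 1 to 4, lower in every KO library. Controls 1 and 3 and KO 1 and 2 were males. All 8 CA1 markers passed the filter on low counts, with a summed level of 488 to 550 CPM in Control libraries and 519 to 557 CPM in KO libraries. All 10 dentate granule markers also passed, with a sum of 946 to 1090 CPM in Control libraries and 863 to 1061 CPM in KO libraries. The dissected tissue thus held RNA of these marker genes, and which cells made it was not tested. The libraries also differed in how log2 CPM depended on the GC content of a gene. This slope ran from -0.16 in KO 1 to 0.16 in KO 4 per 10 percentage points of GC. Both signs occurred in each group, but not evenly. Control 1 (0.14) was the only control above 0, and KO 1 was the only KO library below 0.

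All 10 members passed the filter on low counts. Per length they spanned a wide range, given as TPM, which scales counts to transcript length and then to the library, over the longest coding transcript of each gene. Neurod6 was the highest at 473 ± 20.1 TPM (SD, n = 8), followed by Tcf4 at 290 ± 14.6 TPM, Bhlhe22 at 106 ± 9.91 TPM and Neurod2 at 71.4 ± 5.75 TPM. Id2 (45.1 ± 2.70 TPM) and Tcf12 (41.9 ± 1.98 TPM) came next, and their ranges over the 8 libraries overlapped. Id4 (32.4 ± 2.16 TPM) and Neurod1 (32.1 ± 3.94 TPM) also overlapped, with Id4 above Neurod1 in only 3 of 8 libraries. Id3 (8.01 ± 2.26 TPM) and Tcf3 (5.94 ± 1.52 TPM) were the lowest and overlapped too. Neighbours in this order other than those 3 pairs did not overlap. The order rests on the transcript length chosen. Tcf4 has 27382 annotated exon bases against 8577 in its longest coding transcript, and over all exon bases it was at 115 TPM, below Bhlhe22 at 134 TPM.

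**Figure D1:**
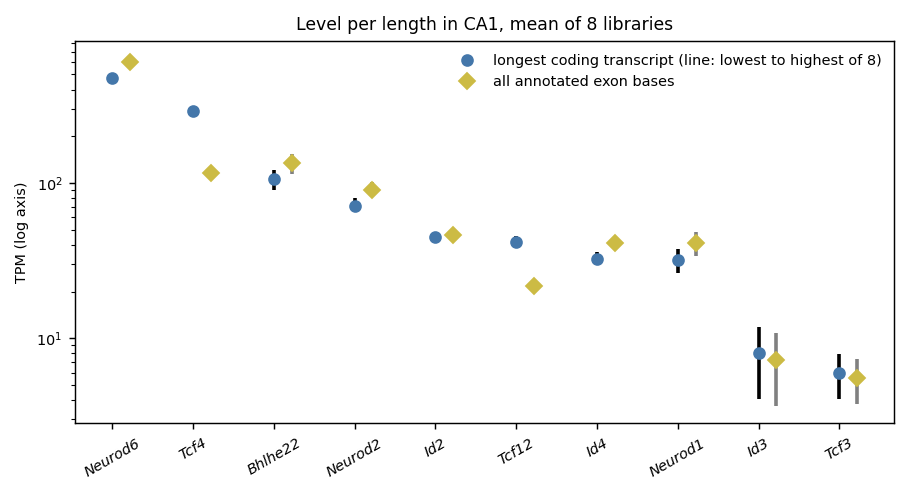
TPM of the 10 members (log axis), as the mean of 8 libraries with a line from the lowest to the highest library, over the longest coding transcript (circles) and over all annotated exon bases (diamonds). Neurod6 is highest at 473 TPM and Tcf3 lowest at 5.94 TPM over the longest coding transcript, and Tcf4 and Tcf12 move most with the length used.

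Summed per class over the longest coding transcript, the 3 NeuroD genes summed to a mean of 573 ± 17.2 TPM (SD, n = 4) with the control guide and 581 ± 19.7 TPM (SD, n = 4) with the SIK3 guide. The 3 E protein genes were at 338 ± 20.3 TPM in controls and 337 ± 8.37 TPM in KO mice, most of it Tcf4. The 3 Id genes were at 86.6 ± 3.38 TPM in controls and 84.4 ± 4.30 TPM in KO mice. The ratio of summed Id to summed E protein transcripts was 0.233 to 0.279 in controls and 0.233 to 0.267 in KO mice. In all 4 of these quantities the groups overlapped. The sums and the ratio also rest on the transcript length chosen. Over all exon bases Tcf4 was at 115 TPM (mean of 8 libraries), against 46.3 TPM for Id2 and 41.2 TPM for Id4.

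The comparison of the SIK3 guide with the control guide asks what loss of the kinase does to these genes. Neurod1 was chosen by its CPM in this contrast, where it had stood among the lower genes, and the other members were added as its family with the same values known. The values of this contrast for the members are therefore a description and carry no test. Over all 14788 genes tested, edgeR's quasi-likelihood test called 2 genes (0.0135%), and 0 of the 10 members were among them. Groups did not overlap, with KO lower, for 1 member, Neurod1, and for 0.811% of all genes tested.

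Neurod1 (ENSMUSG00000034701, chromosome 2, 79452521 to 79456751 on GRCm38, minus strand) encodes the factor that drives granule neuron differentiation. It was at 31.1, 30.4, 34.3 and 30.6 CPM in controls 1 to 4 and at 26.0, 25.5, 23.6 and 27.6 CPM in KO 1 to 4. All 4 KO libraries lay below all 4 controls, in both sexes. The Control mean was 31.6 ± 1.83 CPM (SD, n = 4) and the KO mean 25.7 ± 1.63 CPM (SD, n = 4). The fitted log2 fold change was -0.30 ± 0.08 (SE). Within the males it was -0.34 ± 0.11 and within the females -0.25 ± 0.11 (SE, 2 mice against 2). In bulk tissue, fewer cells with Neurod1 and less Neurod1 RNA per cell cannot be told apart.

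Dentate granule markers had overlapping summed levels in the guide groups (above). Of the 10 markers 7 had negative log2 fold changes and 3 positive ones, with a median of -0.05 against 0.00362 over all genes tested. The part of these markers in the Neurod1 value was not tested. With the dentate marker score as a covariate the log2 fold change of Neurod1 was -0.33 ± 0.09 (SE). Markers of immature neurons summed to 65.6 to 75.7 CPM with the control guide and 61.9 to 80.7 CPM with the SIK3 guide, with all 7 detected. With the GC slope as a covariate the log2 fold change of Neurod1 was -0.30 ± 0.07. Both covariate fits use the values by which Neurod1 was chosen, so they are a description and test no cause. Neurod1 shares 201 exon bases on the same strand with Cerkl, a ceramide kinase-like gene next to it, so reads there may be lost or split in counting. The Control mean of Cerkl was 5.65 ± 1.33 CPM (SD, n = 4) and the KO mean 5.32 ± 0.72 CPM (SD, n = 4), with overlap.

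Neurod2 and Neurod6, the other NeuroD genes, had overlapping guide groups. Neurod6 (ENSMUSG00000037984, chromosome 6, 55677822 to 55681263) measured 309, 317, 342 and 348 CPM in the Control libraries and 339, 351, 344 and 313 CPM in the KO libraries. The guide groups spanned nearly the same range, with a log2 fold change of 0.03 ± 0.06 (SE). Neurod2 (ENSMUSG00000038255, chromosome 11, 98325415 to 98329648) measured 81.5, 70.5, 68.1 and 69.3 CPM in the Control libraries and 68.6, 79.3, 72.4 and 76.7 CPM in the KO libraries. Its highest library was control 1 and its lowest control 3, and its log2 fold change was 0.04 ± 0.07.

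Bhlhe22 (ENSMUSG00000025128, chromosome 3, 18054174 to 18057517, plus strand) measured 122, 116, 135 and 119 CPM in the Control libraries and 121, 113, 97.7 and 101 CPM in the KO libraries. The KO females were the lowest of the 8 libraries, KO 2 lay just under all controls and KO 1 lay within them. The log2 fold change was -0.19 ± 0.06 (SE), with -0.14 ± 0.08 in males and -0.24 ± 0.08 in females. Its partner Prdm8 had a log2 fold change of 0.01 ± 0.06, with overlapping groups.

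**Figure D2:**
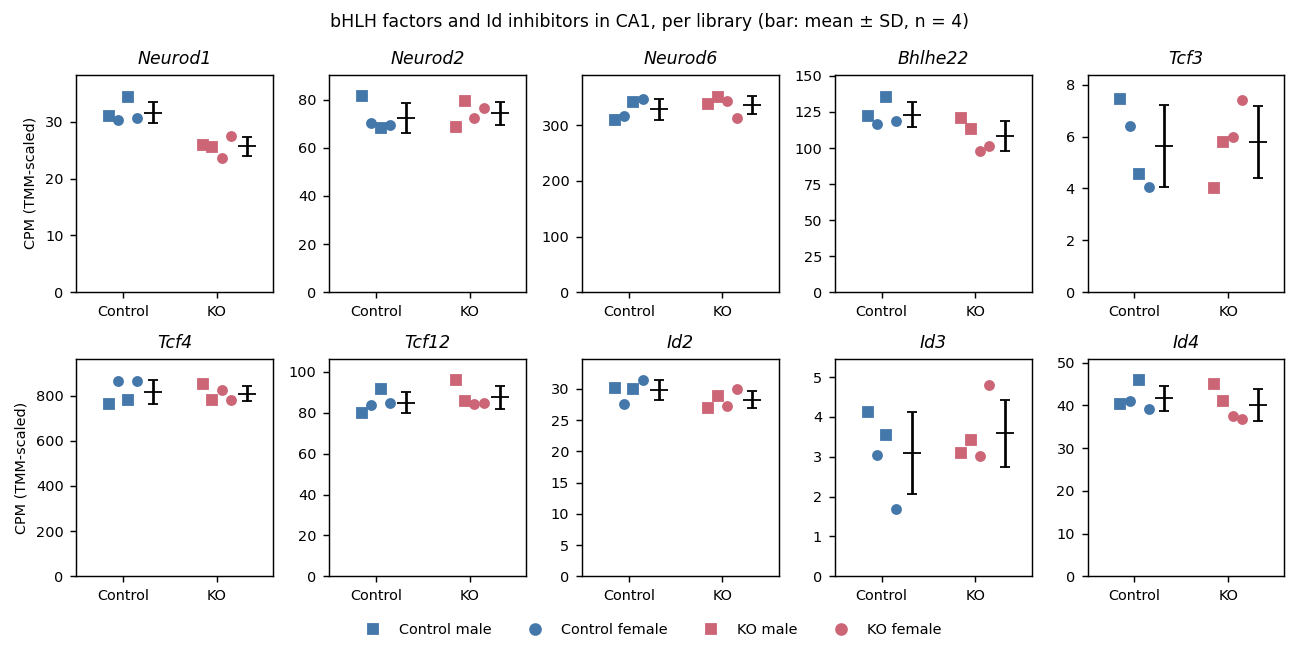
CPM of each member in the 8 libraries (y axis from 0), controls in blue and KO in red, males as squares and females as circles, with the group mean ± SD (n = 4) as a bar. Neurod1 is the only panel in which the groups separate, at 30.4 CPM or more in controls and 27.6 CPM or less in KO mice.

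The E protein genes showed no separation of the guide groups. Tcf4 (ENSMUSG00000053477, chromosome 18, 69343356 to 69689079, plus strand), the most abundant E protein transcript here, measured 762, 863, 781 and 863 CPM in the Control libraries and 849, 779, 825 and 780 CPM in the KO libraries. The KO libraries all lay between the lowest and the highest control, and the log2 fold change was -0.01 ± 0.06 (SE). Tcf12 (chromosome 9, 71842688 to 72111871) measured 79.7, 83.9, 91.7 and 84.9 CPM in the Control libraries and 96.1, 86.0, 84.1 and 84.6 CPM in the KO libraries, a log2 fold change of 0.04 ± 0.06. KO 1 was the highest of the 8. Tcf3 (chromosome 10, 80409514 to 80433647) measured 7.46, 6.40, 4.57 and 4.06 CPM in the Control libraries and 4.03, 5.77, 5.99 and 7.42 CPM in the KO libraries. Both groups ran from about the same lowest to the same highest value, and the log2 fold change was 0.04 ± 0.22.

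Of the Id genes, Id2 (chromosome 12, 25093799 to 25097140) measured 30.2, 27.6, 29.9 and 31.5 CPM in the Control libraries and 27.0, 28.9, 27.3 and 29.9 CPM in the KO libraries. The groups overlapped, and the log2 fold change was -0.07 ± 0.07 (SE). Id4 (chromosome 13, 48261228 to 48266026) measured 40.4, 41.1, 45.8 and 39.1 CPM in the Control libraries and 45.0, 41.0, 37.4 and 36.7 CPM in the KO libraries. Its log2 fold change was -0.06 ± 0.07, with the KO females the lowest of the 8 libraries. Id3 (chromosome 4, 136143497 to 136145755), which had only 28 to 85 raw counts per library, measured 4.12, 3.04, 3.54 and 1.70 CPM in the Control libraries and 3.09, 3.42, 3.02 and 4.81 CPM in the KO libraries.

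Control 4 was the lowest and KO 4 the highest Id3 library, both females. The log2 fold change of Id3 was 0.25 ± 0.25 (SE), -0.23 ± 0.31 within males and 0.71 ± 0.31 within females. Without KO 4 it was -0.01 and without control 4 it was 0.02. Endothelial markers, of which all 10 were detected, summed to 309 to 323 CPM with the control guide and 318 to 340 CPM with the SIK3 guide, with KO 4 at 318 CPM. The endothelial score is the mean log2 CPM of the list, which gives each marker equal weight, and is given here minus its control mean. On that scale the endothelial score was 0.11 in KO 2, 0.10 in KO 4 and -0.04 to 0.03 in the other 6 libraries. Astrocyte markers, also all 10 detected, summed to 7044 to 7766 CPM with the control guide and 7203 to 7655 CPM with the SIK3 guide. Their score, also minus its control mean, was highest in control 1 (0.078) and KO 4 (0.077). KO 4 was the highest library for microglia markers, at 291 CPM against 229 to 252 CPM elsewhere, and for meningeal fibroblast markers, at 26.2 CPM against 15.5 to 23.5 CPM. Their part in the Id3 value of KO 4 was not tested.

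**Figure D3:**
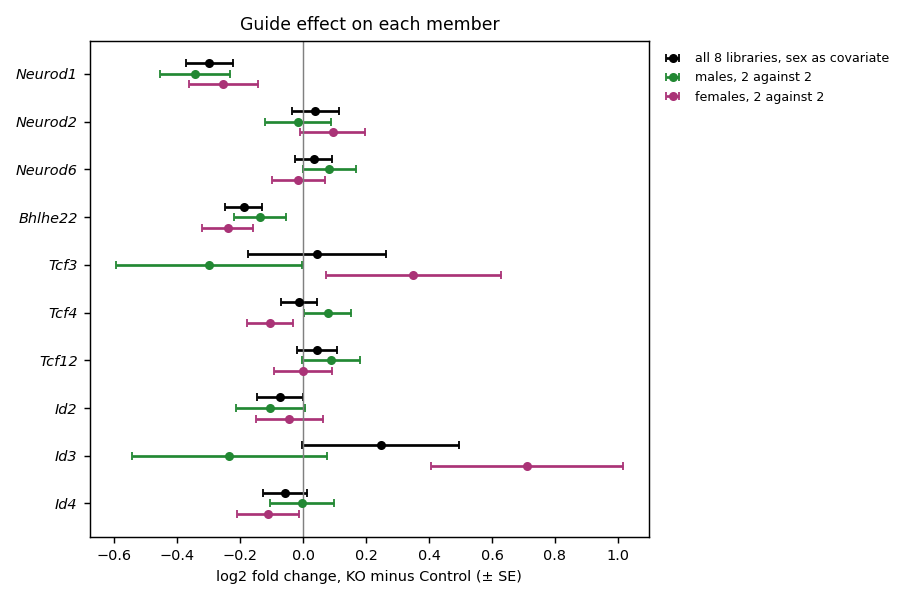
log2 fold change of KO over Control (x axis, ± SE) for each member, over all 8 libraries with sex as a covariate (black), within males (green) and within females (purple), 2 mice against 2 in each sex. Neurod1, Bhlhe22, Id2 and Id4 lie below 0 in both sexes. The other members have opposite signs in the sexes, and Id3 and Tcf3 have the widest errors.

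The members differed in how much they varied within groups. About the fitted means of guide and sex, the SD of log2 CPM was 0.45 for Id3 and 0.41 for Tcf3. It was 0.066 for Bhlhe22, 0.088 for Neurod1 and 0.11 for Neurod2, and the other 5 members lay between 0.07 and 0.09. The median over all genes tested was 0.14.

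The members were also set against the GC slope of their library, a relation examined after the values were seen. The slope is computed from the same log2 CPM, so GC-rich genes as a class follow it by construction. Over the 8 libraries, 12.4% of all 14788 genes had an adjusted permutation p under 0.05 for Pearson's r with the slope, and 29.4% an unadjusted one. Neurod2 and Tcf3 have the most GC-rich longest transcripts of the members, at 58.7% and 61.0%. Neurod2 had r = 0.92 (permutation p = 0.00238, adjusted p over all genes 0.0314) and Spearman's rho = 0.86 (p = 0.0107, adjusted 0.0744). Tcf3 had r = 0.90 (permutation p = 0.00546, adjusted p = 0.0467) and rho = 0.88 (p = 0.00724, adjusted 0.0613), so neither passed by rank. Among the 991 genes at least as GC-rich as Neurod2, 40.7% had an adjusted p under 0.05, the median r was 0.82, and 28.5% had an absolute r at least that of Neurod2. The values of these 2 members are thus no more than many genes of their GC content show. Without KO 4 and control 1, the libraries farthest from the median slope, r was 0.91 for Neurod2 (permutation p = 0.00694) and 0.79 for Tcf3 (permutation p = 0.0819). These p-values of 6 libraries are unadjusted. That of Tcf3 was above 0.05 even so, and whether that of Neurod2 would pass after adjustment was not computed.

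Among the other members, Tcf4, at 40.9% GC, had r = -0.73 (permutation p = 0.0470, adjusted p = 0.163; rho = -0.76, p = 0.0368), Tcf12 r = -0.70 (permutation p = 0.0474, adjusted p = 0.164; rho = -0.60, p = 0.132) and Id3 r = 0.69 (permutation p = 0.0412, adjusted p = 0.150; rho = 0.64, p = 0.0962). Neurod1 had r = -0.21 (permutation p = 0.605, adjusted p = 0.770) and rho = -0.12 (permutation p = 0.793). The guide contrast by which Neurod1 was chosen enters these values too, so they are a description. Neurod6, Bhlhe22, Id2 and Id4 had r from -0.62 to 0.21 and adjusted p from 0.277 to 0.774 (permutation). With the slope added to the fit, the SD of log2 CPM about the fitted means was 0.17 for Tcf3, 0.041 for Neurod2 and 0.098 for Neurod1. The median over all genes tested was then 0.11. Each sex holds 4 libraries, under the 6 needed to give the relation within a sex.

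**Figure D4:**
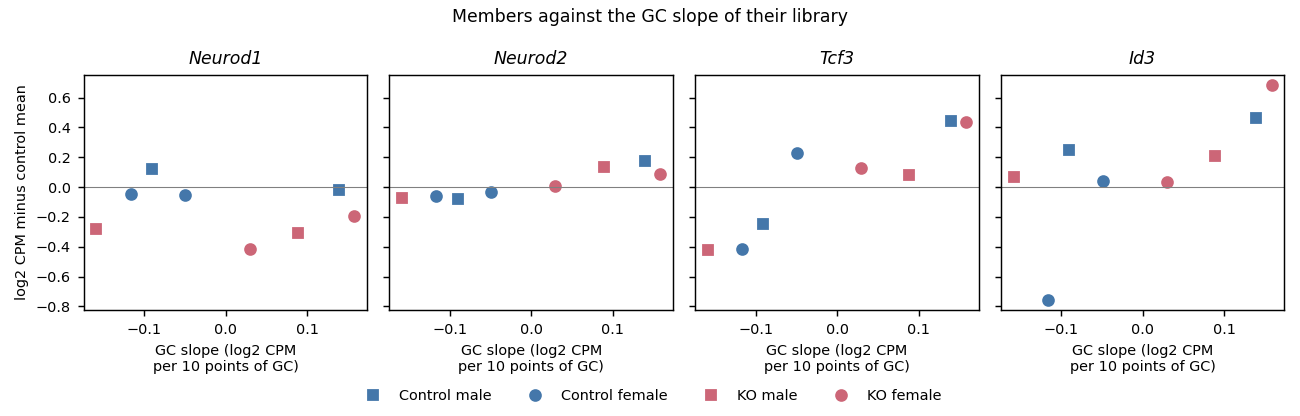
log2 CPM minus the control mean (y axis) against the GC slope of the library (x axis, log2 CPM per 10 percentage points of GC) for Neurod1, Neurod2, Tcf3 and Id3 in 8 libraries. Neurod2 (r = 0.92) and Tcf3 (r = 0.90), both GC-rich, line up with the slope, which is computed from the same libraries. Neurod1, which was chosen for its lower KO values, has r = -0.21.

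A further 4 relations of members to marker scores (the mean log2 CPM of a list) were computed over the 8 libraries. Neurod1 and dentate granule markers had r = 0.29 (permutation p = 0.467, adjusted p over the 4 relations 0.755) and rho = 0.48 (p = 0.243, adjusted 0.598). Without control 4 and KO 4, r was 0.85 (unadjusted permutation p = 0.0292, 6 libraries). The guide contrast by which Neurod1 was chosen enters these values, so for Neurod1 they are a description and no test. Neurod6 and CA1 markers had r = -0.13 (permutation p = 0.755, adjusted p = 0.755; rho = -0.12, p = 0.793), and r = -0.63 (permutation p = 0.174) without KO 2 and control 3. Id4 and astrocyte markers had r = -0.25 (permutation p = 0.540, adjusted p = 0.755; rho = -0.43, p = 0.299), and r = 0.22 (permutation p = 0.733) without control 1 and KO 4. Id3 and endothelial markers had r = 0.21 (permutation p = 0.616, adjusted p = 0.755; rho = -0.024, p = 0.977), and r = -0.54 (permutation p = 0.251) without KO 2 and KO 4. The adjusted p of all 4 relations was 0.755, so none of these 4 relations passed.

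The sexes were compared next, a contrast that played no part in choosing the members. For the difference between females and males, 0 of the 10 members passed in edgeR (smallest adjusted p = 0.748), against 0.0609% of all genes, and 0 passed in DESeq2 or limma voom. At an unadjusted p under 0.05 there were 2 members in edgeR, 1 in DESeq2 and 2 in limma voom, against 6.05% of all genes in edgeR. Those 2 were Bhlhe22, at 123 ± 9.14 CPM in males and 108 ± 10.6 CPM in females (SD, n = 4 each; log2 fold change -0.18 ± 0.06, SE; edgeR, adjusted p = 0.748), and Id4, at 43.0 ± 2.75 CPM and 38.6 ± 1.92 CPM (-0.16 ± 0.07; edgeR, adjusted p = 0.793). CPM of the sexes overlapped for all 10 members, while it did not for 4.45% of all genes.

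For the interaction of sex and guide, 0 of the 10 members passed in edgeR (smallest adjusted p = 0.765), DESeq2 or limma voom, and 0 had an unadjusted p under 0.05 in any of the 3 tools. Over all genes, 0% passed in edgeR and 5.42% had an unadjusted p under 0.05. The largest member interaction was that of Id3, at 0.95 ± 0.44 (SE; edgeR, adjusted p = 0.765), followed by Tcf3 at 0.65 ± 0.41. With 1 library left out, the value of Id3 ran from 0.57 (without KO 4) to 1.43 (without control 2) and that of Tcf3 from 0.26 (without control 1) to 1.02 (without control 2). The opposite signs of these genes in males and females were therefore not shown to be a difference between the sexes.

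Among the other 74 bHLH genes listed, 51 passed the filter on low counts, and in the guide contrast 0 were called by edgeR, DESeq2 or limma voom. At an unadjusted p under 0.05 there were 2 in edgeR, 1 in DESeq2 and 2 in limma voom, against 2.81% of all genes in edgeR. Of the 51, 23 had positive and 28 negative log2 fold changes, with a median of -0.02 against 0.00362 over all genes tested. The members had 5 positive and 5 negative and a median of 0.01. Neurod4, Neurog1, Neurog3, Atoh1 and Atoh7, factors of neural progenitors, did not pass the filter on low counts.

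The other neural bHLH genes had 10 tested members with a median of -0.04. Nhlh1, a factor of newly formed neurons, measured 2.34, 1.93, 1.99 and 1.76 CPM in the Control libraries and 1.61, 1.35, 1.35 and 1.13 CPM in the KO libraries. Every KO library lay below every control, with a log2 fold change of -0.56 ± 0.19 (SE) that did not pass (edgeR, adjusted p near 1). KO libraries were lower without overlap in 0.811% of all genes. Tal1, a blood and vessel factor also made in some neurons, had 0.25 ± 0.20, and Olig2, of the oligodendrocyte lineage, -0.13 ± 0.14.

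The Hes, Hey, Bhlhe40 and Bhlhe41 repressors had 7 tested genes with 5 negative values and a median of -0.11. Bhlhe41, a repressor of the circadian clock, had a Control mean of 40.6 ± 2.16 CPM (SD, n = 4) and a KO mean of 35.5 ± 2.08 CPM (SD, n = 4). Its groups did not overlap, with KO lower, as in 0.811% of all genes, and its log2 fold change of -0.20 ± 0.07 (SE) did not pass. Hey2, a Notch target, had -0.28 ± 0.17 and Bhlhe40 -0.11 ± 0.09. The bHLH-PAS genes had 14 tested, 8 of them positive, and a median of 0.00217. Npas3, a neuronal and glial factor, was at 8.17 to 11.26 CPM in Control libraries and 11.27 to 11.56 CPM in KO libraries (0.21 ± 0.11). Its groups thus did not overlap, by a narrow margin, with KO higher, as in 0.933% of all genes. Npas1 had 0.35 ± 0.30 and the hypoxia factor Epas1 0.09 ± 0.08. Of the 20 bHLH zipper genes tested, 9 were positive and 11 negative, with a median of -0.01, and Mnt (0.18 ± 0.12), Tfe3 (0.11 ± 0.08) and Mxi1 (-0.11 ± 0.08) had the smallest p.

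Partners and cofactors of these factors had 13 tested genes, with 0 called by edgeR, DESeq2 or limma voom in the guide contrast. There were 0 at an unadjusted p under 0.05 in any of the 3, and the median was 0.02. Over all genes, edgeR called 0.0135%, and 2.81% had an unadjusted p under 0.05. Runx1t1, a corepressor that binds E proteins, had -0.07 ± 0.07 (SE), the LIM-domain gene Lmo3 -0.06 ± 0.07 and the acetyltransferase gene Kat2b -0.06 ± 0.07. Genes of the bone morphogenetic protein (BMP) pathway, a known inducer of Id genes, had 20 tested members with 0 called by any of the 3 tools. Against 2.81% of all genes in edgeR, 1 of the 20 had an unadjusted p under 0.05 in each tool. That gene was the ligand gene Bmp7, at 1.92, 1.93, 1.77 and 1.88 CPM in controls and 2.42, 2.85, 2.37 and 3.51 CPM in KO mice. Every KO library lay above every control, which held for 0.933% of all genes, and the log2 fold change was 0.57 ± 0.19 (edgeR, adjusted p near 1). Bmp5 had -0.31 ± 0.21 and the endothelial receptor gene Acvrl1 0.19 ± 0.13, and the median of the list was -0.04.

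Genes reported as regulated by Neurod2, Neurod6 or Bhlhe22 in cortical neurons had 6 tested members with 0 called by edgeR, DESeq2 or limma voom. Against 2.81% of all genes in edgeR, 0 of these 6 had an unadjusted p under 0.05 in any of the tools. Their median log2 fold change was -0.04, with the secreted protein gene Reln at -0.10 ± 0.08 (SE), the neuropeptide gene Grp at -0.22 ± 0.26, the potassium channel gene Kcnn2 at -0.06 ± 0.08 and Cntn2, an axonal adhesion gene, at 0.02 ± 0.11.

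**Figure D5:**
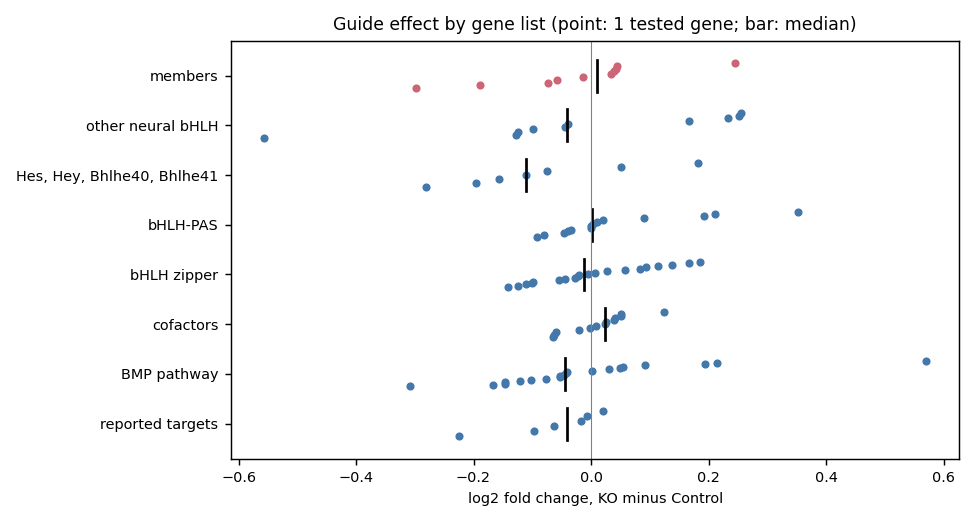
log2 fold change of KO over Control (x axis) for each tested gene of the members (red) and of 7 related lists (blue), with the median of each list as a bar. Medians run from -0.11 for the Hes, Hey, Bhlhe40 and Bhlhe41 repressors to 0.02 for the cofactors, and Nhlh1 (-0.56) and Bmp7 (0.57) lie farthest out.

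The genes whose course over the 8 libraries was most like that of Neurod1 were ranked by the root mean square difference of log2 CPM, each gene centred on its mean, among 10911 genes with a mean of at least 5 CPM. The 5 closest were Sh3gl3 (0.070), Pigm (0.076), Hspe1 (0.076), Rttn (0.080) and Pigu (0.082), against a median of 0.20 over the ranked genes. Sh3gl3 encodes an endophilin, Pigm and Pigu enzymes of glycolipid anchor synthesis, Hspe1 a mitochondrial chaperonin and Rttn a centriole protein. Hspe1 has processed copies in the genome, so its count is uncertain. Since Neurod1 was chosen for its guide groups, likeness to it also fixes lower KO values, and nothing is read from the guide contrast of these genes. Of the other members, Bhlhe22 was the closest to Neurod1 at 0.11 (rank 44) and Id2 the next at 0.14 (rank 448), while Neurod2 and Neurod6 were at 0.21 and 0.20, an order that the guide contrast enters in the same way.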

How the data were processed

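Libraries were made with a stranded mRNA kit from CA1 of 8 mice, 4 per guide, per the labels' protocols. The authors deposited raw read counts per Ensembl gene, 1 file per mouse. The submitters' processing notes name the build mm10 and the tools HTSeq 2.0.1, Trimmomatic 0.33 and TopHat2 2.1.1 without saying what each did, and give neither a strand setting nor an annotation release. A table of the whole series with 8 columns was not used here. Symbols, positions, lengths and GC content came from GENCODE M21 on GRCm38, with 35533 of 37315 identifiers matched.

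The test was that of edgeR 4.0.16 under R 4.3.3 (scaling by TMM, filterByExpr with a minimum count of 10 and total of 15, quasi-likelihood F test, sex as covariate, 5 residual degrees of freedom), and p-values were adjusted by Benjamini-Hochberg over 14788 genes at 0.05. log2 CPM used a prior count of 2, and a standard error is the log2 fold change over the square root of F. DESeq2 1.42.0 and limma 3.58.1 (voom) were alternatives, beside other scalings, no filter, other covariates and leaving out each library. Libraries are numbered in listing order, which pairs no mice. The members and lists were chosen with earlier results of these data known. Named genes were the members, Sik3, Cerkl, the 3 genes of each related list with the smallest p in the guide contrast (any past the threshold in addition) and the 5 most like Neurod1. Nhlh1, Bmp7, Bhlhe41 and Npas3 came under that rule; Prdm8, Cntn2 and the progenitor factors under the filter were named after their values were seen. In simulated counts for 14639 genes the test recovered 24% of genes changed 1.25-fold, 64% at 1.5-fold and 90% at 2-fold, with 12 unchanged genes called. Permutation p-values are two-sided and run over all orders of the libraries.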

Additional observations from a re-analysis of the deposited data

Results flagged for a closer look

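Tcf12 in KO 1, a male, was at 96.1 CPM, while the nearest KO library was at 86.0 CPM and the lowest at 84.1 CPM. The gap to its neighbour made up 0.847 of the range of the 4 KO values, above the value that 1 in 20 groups of 4 pass by chance, and 20 groups of 4 were examined. KO 1 also had the lowest GC slope of the 8 libraries, at -0.16 per 10 percentage points, and Tcf12 was lower where the slope was higher (r = -0.70 over 8 libraries, permutation p = 0.0474, adjusted p over all genes 0.164). The part of the slope in this value was not tested.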

How the results depend on the processing

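No paired analysis was possible because the library numbers follow listing order and link no mice. The log2 fold change of Neurod1 between the guides ran from -0.36 (without KO replicate 4) to -0.26 (without Control replicate 3) over 16 alternatives, and that of Bhlhe22 from -0.24 to -0.17. The choice of Neurod1 fixes its sign, and nothing is read from it. Id2 and Id4 also stayed below 0. Neurod2, Neurod6, Tcf12 and Id3 changed sign in 1 of 16 and Tcf3 and Tcf4 in 4 of 16. The count of 2 genes called between the guides was 84 with no filter and 0 with dentate markers as covariate, and 0 to 2 when 1 library was left out. The interaction called 100 genes with no filter, 2 by DESeq2 and 0 to 1 without 1 library. Within females the count of 6 was 275 with no filter, 18 by DESeq2, 31 with females fitted alone and 0 to 21 without 1 library; within males the count of 0 was 20, 3 by DESeq2 and 0 to 1. Between the sexes 9 genes were called, 112 with no filter and 19 by DESeq2. None of these counts tests the members. Leaving out 1 library, r ran from 0.10 (without Control replicate 3) to 0.56 (without Control replicate 4) for Neurod1 with dentate markers, from -0.66 to 0.13 for Neurod6 with CA1 markers (0.13 without Control replicate 1), from -0.41 to 0.042 for Id4 with astrocyte markers (0.042 without KO replicate 4) and from -0.11 to 0.51 for Id3 with endothelial markers (-0.11 without KO replicate 4); the cause was not tested. The relation of Neurod2 to the GC slope had r from 0.91 to 0.95 and that of Tcf3 from 0.86 to 0.98 over all alternatives, but with 7 libraries the adjusted p over all genes ran from 0.0465 to 0.0987 for Neurod2, under 0.05 only without KO 2 or KO 4, and from 0.0362 to 0.130 for Tcf3, under 0.05 only without control 2. Depth limits Id3 most, at 28 to 85 counts per library, and Tcf3, at 60 to 131.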
